A study of Mus musculus with 29 samples.

Results

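In adult mouse prefrontal cortex, 979 numbered chromatin regions of moderate accessibility were more open in mice heterozygous for a Myt1l knockout (Het) than in wild type (WT). They were chosen by measured values of the same libraries: a mean of 2 to under 20 CPM, read counts scaled to a common library size, over 12 libraries, and a mean log2 value in Het at least 0.35 above that in WT. That threshold is a fold of 1.27. The rule took 979 of the 112774 regions in that range of levels (0.868%), out of 237287 regions in all. The Het minus WT difference of a member is therefore a description of how it was chosen, and counts of calls on it are given below only to describe the members.

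The libraries were 6 WT and 6 Het, with 3 males and 3 females of each genotype, from prefrontal cortex of adult mice. The knockout line, its allele and the exact age are described no further in the labels, and no group received a treatment. The labels do not say that each library came from a separate animal. The p-values therefore measure only the spread between libraries, as left by the authors' adjustment for unwanted variation. Embryonic cortex libraries of the same line were not used here, because their regions carry a separate numbering.

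MYT1L is a zinc finger transcription factor of neurons, known for holding down genes of other cell fates and for supporting neuronal identity. Losing 1 copy of the gene causes a neurodevelopmental syndrome in people. ATAC-seq reads out open chromatin with a transposase, which cuts and tags DNA where nucleosomes leave it free, as at active promoters and enhancers. The deposited table pairs its region numbers with no gene or coordinate. No sequence, gene or distance to a start site is therefore given for any member, and the genotype labels were not checked at the targeted gene. Prefrontal cortex holds neurons and glia of many types, and in bulk tissue a change in the number of cells of a type and a change in accessibility per cell cannot be told apart.

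All 12 libraries had the same upper quartile, 4.64 CPM, and medians of 2.01 to 2.07 CPM. The depth behind each library is unknown, because the values had been scaled and adjusted. Values lay on a grid with steps of 0.03865 to 0.03898 CPM, so that 2 CPM is 51.7 steps. The table held 11 directions of variation among libraries, and 3 of them had almost none, with a root mean square of at most 0.0204 log2 against at least 0.293 log2 in the other 8. These 3 directions held 0.0658% of the Het minus WT contrast and 0.0839% of the male minus female contrast, but 68.7% of the genotype by sex contrast.

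The members were mostly small changes at regions of low accessibility. The median Het minus WT difference was 0.398 log2, a fold of 1.32, and 741 members (75.7%) lay under 0.45 log2. A difference above 0.5 log2 was reached by 103 members and one above 1 log2 by 9. The median of the members' mean level was 2.25 CPM in WT and 3.03 CPM in Het. Between 2 and 3 CPM lay 658 members (67.2%), and their number fell steeply with level: they made up 2.11% of regions from 2 to 3 CPM, 0.738% from 3 to 5 CPM, 0.175% from 5 to 10 CPM and 0.0663% from 10 to 20 CPM. The spread between libraries of a genotype fell over the same classes, from a median SD of 0.218 log2 to 0.108 log2 over all regions. Within the 2 to 3 CPM class the members had a median SD of 0.239 log2.

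**Figure D1:**
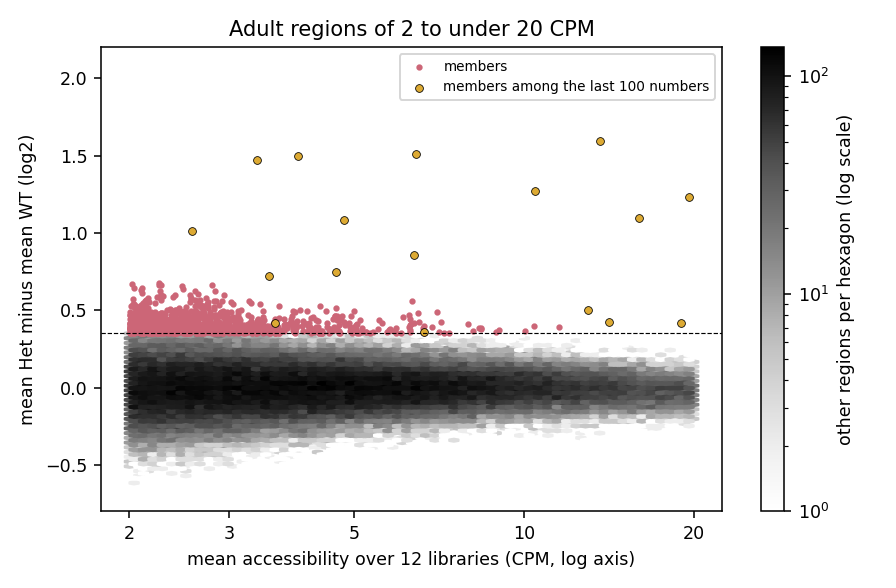
Each region of 2 to under 20 CPM by its mean accessibility over 12 libraries (CPM, log axis) and its Het minus WT difference (log2); red and yellow points are members, yellow ones lie among the last 100 region numbers, grey hexagons count all other regions, and the dashed line is the threshold of 0.35. Most members crowd between 2 and 3 CPM just above the line, and all points above 1 log2 are yellow.

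A mirrored rule, a difference of at most -0.35 log2 at the same levels, took 936 regions (0.83%), nearly as many as the 979 members. Their median difference was -0.395 log2 and their median level 2.57 CPM, against 2.64 CPM for the members. From 2 to 3 CPM there were 657 mirrored regions and 658 members. From 10 to 20 CPM there were 4 mirrored regions and 10 members, of which 7 lay among the last 100 region numbers.

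Among members in which every Het library lay above every WT library, all_pfc_peak_170050 had the largest difference. Its accessibility in WT ran from 1.71 CPM to 2.2 CPM with a median of 1.92 CPM. In Het it ran from 2.36 CPM to 3.87 CPM with a median of 2.98 CPM. The means were 1.91 ± 0.179 CPM (SD, n = 6) in WT and 3.04 ± 0.49 CPM (n = 6) in Het. The difference was 0.66 log2 (SE 0.115, from the limma fit described below). Het replicate 50 was the lowest Het library and WT replicate 7 the highest WT library, and only 0.0978 log2 separated them.

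The widest gap between the groups belonged to another member, chosen after the values were seen. In WT it measured 2.26 to 2.55 CPM with a median of 2.31 CPM, and in Het 3.25 to 3.83 CPM with a median of 3.57 CPM. The gap between the lowest Het and the highest WT library was 0.348 log2. The libraries of each genotype were tight here, at 2.34 ± 0.105 CPM in WT and 3.55 ± 0.201 CPM in Het (SD, n = 6 each).

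The member with the median difference is an example of that size of difference, but not of the members' usual sex difference. In WT it ran from 1.44 to 2.53 CPM with a median of 2.07 CPM, and in Het from 2.1 to 3.32 CPM with a median of 2.69 CPM. The groups overlapped, and 4 of the 6 Het libraries lay above the highest WT library. Males exceeded females by 0.434 log2 here, against a median size of 0.158 log2 over the members. At the edge of the rule, the last member inside measured 2.58 ± 0.359 CPM in WT and 3.28 ± 0.329 CPM in Het. The first region outside measured 2.06 ± 0.237 CPM and 2.63 ± 0.336 CPM (SD, n = 6 each). Both differences round to 0.35 log2.

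Accessible members were few. Outside the last 100 region numbers, the member of the highest level measured 7.85 to 12.1 CPM in WT, with a median of 9.76 CPM. In Het it measured 11.7 to 15.2 CPM, with a median of 12.5 CPM, and 3 Het libraries exceeded the highest WT library.

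**Figure D2:**
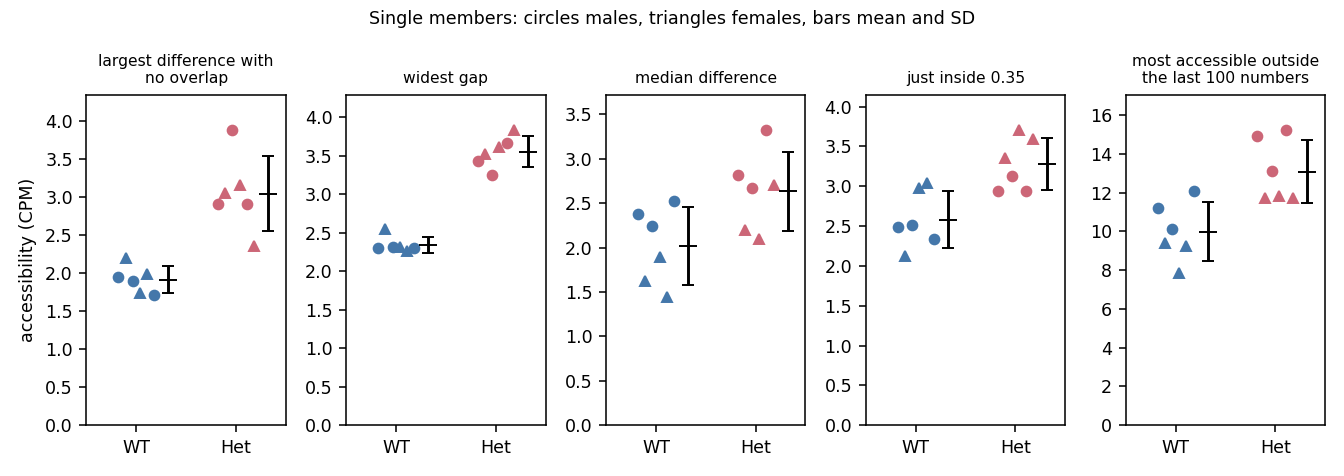
Accessibility (CPM, from 0) of 5 members in each WT (blue) and Het (red) library, with circles for males, triangles for females and black bars for the mean and SD of 6 libraries. In the first 2 panels all Het libraries lie above all WT libraries, while in the other 3, the median member included, single libraries of the groups overlap.

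Every Het library lay above every WT library in 192 of the 979 members. Over all 112774 regions of these levels, 692 (0.614%) did so. Since the rule used this contrast, the count describes the members and supports nothing. The mean over all members ran from 1.2 to 1.34 log2 CPM in WT libraries and from 1.63 to 1.76 log2 CPM in Het libraries, while over all regions of these levels every library lay between 2.22 and 2.24 log2 CPM. The gap between the genotypes is fixed by the choice of members.

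Libraries contributed unequally. Het replicate 47 was the highest Het library in 244 members (24.9%, against 17.7% of all regions of these levels) and Het replicate 41 in 219 (22.4%, against 19.4%), both from males. Het replicate 21 was the highest in 94 members (9.6%, against 14.3%). Among WT libraries, replicate 35 was the lowest in 247 members (25.2%, against 18.4%) and replicate 1 in 16 (1.63%, against 4.83%). WT replicate 1 was thus rarely the lowest WT library, in the members as in all regions.

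With a single library left out, the rule took from 980 regions without Het replicate 47 to 1282 without WT replicate 7. Of the 979 members, 725 met the rule without Het replicate 47, the fewest of the 12 omissions, and 876 did so without WT replicate 1, the most. The rule held in all 12 omissions for 337 members (34.4%), which had a median difference of 0.455 log2. Of these 337, 116 had every Het library above every WT library. In 98 members the rule held in 6 omissions or fewer.

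**Figure D3:**
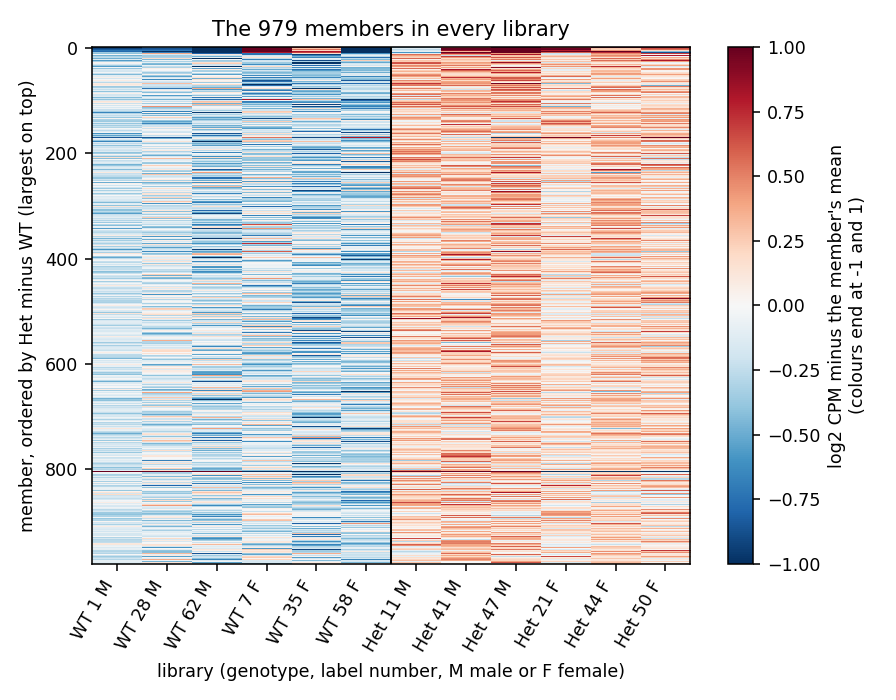
Members (rows, ordered by Het minus WT with the largest on top) in each library (columns, WT left and Het right of the line, M male and F female), as log2 CPM minus the member's own mean, with colours ending at -1 and 1. Het columns are redder by choice of the members. Het 47 and Het 41 hold the darkest reds more often than Het 21, and WT 1 is rarely the darkest blue of the WT columns.

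In a limma fit of genotype and sex over all 173029 regions of at least 1 CPM, 188 of the 979 members were called higher in Het at a Benjamini-Hochberg adjusted p under 0.05. Over all tested regions 0.214% were called higher, and nothing is read from the comparison because the rule used the same contrast. Called members had a median difference of 0.446 log2, a median SE of 0.089 and a median level of 3.65 CPM. Those not called had 0.392 log2, 0.119 and 2.53 CPM. Of the 188, 104 had every Het library above every WT library.

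The count of 188 depended on the fit and on single libraries. The main fit counted the 3 directions without variation as ordinary spread between libraries. Its p-values thus rest on a spread already reduced and can be too small. With these 3 directions as covariates, 14 members were called, 7 of them among the 188, where 0.00982% of all regions were called higher. Omission of WT replicate 7 left 182 called members and that of Het replicate 41 left 178. Omission of WT replicate 1 left 1, and so did that of Het replicate 44. Over all tested regions 371 were called higher in Het with every library. Omitting WT replicate 7 gave 391 there and omitting Het replicate 41 gave 409, while omitting WT replicate 1 or Het replicate 44 gave 1, so the fall was not one of the members alone. Among the remaining WT libraries, omitting replicate 58 left 18 called members, replicate 62 left 31, replicate 28 left 51 and replicate 35 left 65. Over all tested regions the same omissions gave 19, 37, 82 and 122 called higher in Het. Among the remaining Het libraries, omitting replicate 21 left 18 called members, replicate 47 left 39, replicate 11 left 82 and replicate 50 left 86. Over all tested regions these gave 19, 51, 138 and 171. At all_pfc_peak_170050 the difference ran from 0.58 to 0.73 log2 over the 12 omissions.

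The largest differences stood at the end of the numbering, a stretch of 100 numbers singled out after the values were seen. Of the 38 regions of these levels among the last 100 region numbers, 17 (44.7%) were members and 2 met the mirrored rule. All 12 members of the largest difference were among them, and so were all 9 above 1 log2. In none of the 17 did every Het library lie above every WT library, and their median SD within a genotype was 0.971 log2, against 0.224 log2 in the other 962 members.

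The region all_pfc_peak_242748 had the largest difference of all members, 1.60 log2 (SE 0.531 in the limma fit). In WT it ran from 1.32 CPM in replicate 62 to 32.7 CPM in replicate 7, with a median of 4.63 CPM. In Het it ran from 6.49 CPM in replicate 11 to 33.1 CPM in replicate 47, with a median of 15.2 CPM. A single Het library exceeded WT replicate 7, and 4 of the 6 WT libraries lay below every Het library. The difference was 2.09 log2 without WT replicate 7 and 1.07 log2 without WT replicate 58. The SD between libraries was 1.87 log2 in WT and 0.78 log2 in Het (n = 6 each). The SE does not rest on this spread alone, because limma draws a region's spread towards that of regions of similar level.

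The other members at the end of the numbering followed the same libraries. WT replicate 7 was the highest WT library in 15 of the 17, and WT replicate 58 or 62 the lowest in 13. Het replicate 47 was the highest Het library in 12 and Het replicate 11 the lowest in 11. Averaged over the 17, accessibility ran from 2.72 CPM in WT replicate 58 to 15.0 CPM in WT replicate 7, and from 7.79 CPM in Het replicate 11 to 16.3 CPM in Het replicate 47. These WT libraries thus covered nearly the whole range of the Het libraries. The sources used here do not say what these regions are. Of the 14 members called with the 3 directions as covariates, 8 were among these 17, and of the 188 called without them, 2 were. At all_pfc_peak_242748 the limma SE was 0.283 with these covariates and 0.531 without them. The covariates thus lowered the SE at this region, although its WT libraries had an SD of 1.87 log2. Among these 17 the fit with covariates was therefore not the more cautious one.

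**Figure D4:**
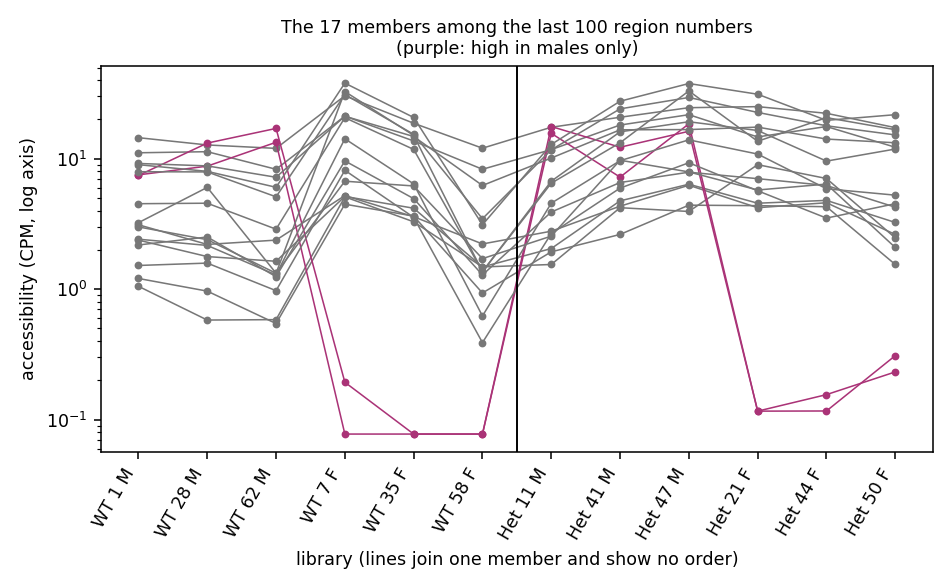
Accessibility (CPM, log axis) of the 17 members among the last 100 region numbers in each library, with lines that join 1 member and purple for the 2 seen in males alone. In the other 15 WT 7 is the highest WT library, in 13 of them WT 58 or WT 62 is the lowest, and WT and Het libraries overlap.

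In 2 of the 17 members the signal was high in males and near the floor of the table in females. The first measured 7.52 to 13.4 CPM in WT males and 12.3 to 17.7 CPM in Het males, a difference of 0.664 log2. All 3 WT females stood at 0.0775 CPM, the lowest value in the table, and Het females measured 0.116 to 0.232 CPM. The second measured 7.44 to 17.1 CPM in WT males and 7.23 to 18.5 CPM in Het males, a difference of 0.107 log2. Its WT females measured 0.0775 to 0.193 CPM and its Het females 0.116 to 0.309 CPM. In females near the floor its difference was 0.616 log2, and in males alone it did not reach 0.35 log2.

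Males and females were compared at the members because the rule did not use sex, although the same 12 libraries give both contrasts. In the limma fit, 107 of 979 members differed between the sexes at an adjusted p under 0.05, of which 79 were higher in males and 28 higher in females. Over all tested regions the shares were 3.64% higher in males and 3.61% higher in females. Over all regions of 2 to under 20 CPM 8.43% were called in either direction, against 10.9% of members and 6.84% of mirrored regions. From 2 to 3 CPM, where 67.2% of members lay, 6% of all regions, 9.88% of members and 5.78% of mirrored regions were called. From 3 to 5 CPM these shares were 7.64%, 11.4% and 9.32%, and from 5 to 10 CPM 10.4%, 21.4% and 7.69%. From 10 to 20 CPM, with 10 members and 4 mirrored regions, they were 11.1%, 10% and 25%. Of the 64 mirrored regions called, 27 were higher in males. Regardless of calls, 59.2% of members were higher in males, against 48.7% of all regions of these levels and 45.8% of the mirrored regions. Leaving out any single library kept the share of members between 57.5% and 60.9%. The members stayed those chosen with all 12 libraries, so this range cannot show whether their choice itself tilts the share.

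The tilt towards males was seen in each class of level with more than 1 call. From 2 to 3 CPM 44 of the 65 members called for sex were higher in males, from 3 to 5 CPM 22 of 29, and from 5 to 10 CPM 12 of 12. Over all regions of these classes, 1036 of 1867, 1374 of 2639 and 1505 of 3328 calls were higher in males. The libraries that were most often the highest in Het, replicates 47 and 41, are from males, and those most often the lowest in WT, replicates 35, 62 and 58, are from a male and 2 females. Their part in the tilt was not tested beyond leaving out each in turn. Without WT replicate 1 the count of sex calls among members was 62, of which 46 were higher in males, where 2522 of 5223 calls over all tested regions were. With the 3 directions as covariates it was 47, of which 35 were higher in males, where 1517 of 3135 calls over all tested regions were.

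The clearest sex differences outside the last 100 numbers were in both genotypes. They were picked by the smallest p after the values were seen. The first measured 4.06 to 6.11 CPM in males with a median of 4.83 CPM, and 2.2 to 3.48 CPM in females with a median of 3.06 CPM. The male minus female difference was 0.72 log2 with a limma adjusted p of 5.49e-05 (SE 0.084), or 6.06e-05 with the 3 directions as covariates. Males measured 4.26 CPM and females 2.6 CPM in WT, and 5.62 and 3.4 CPM in Het. No female library reached the lowest male library. The clearest member higher in females measured 1.64 to 2.4 CPM in males and 2.42 to 3.48 CPM in females. Its male minus female difference was -0.58 log2 (SE 0.093, limma adjusted p = 0.00133, or 0.02 with the 3 directions as covariates). This member stood at 1.72 against 2.62 CPM in WT and at 2.32 against 3.4 CPM in Het, males first.

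The Het difference of the members had a median of 0.414 log2 in males and 0.405 log2 in females, and it was above 0 in both sexes in all 979. The rule fixes its mean over the sexes. The rule held in males alone and in females alone for 408 members. No member was called for the Het effect in males minus that in females in limma, where 0% of all regions were called, and 2 members had an unadjusted p under 0.05. Over all regions 0.0387% had such a p, and 68.7% of this contrast lay in the directions without variation. The table therefore holds little of any such difference. With the 3 directions as covariates, 9 members were called, all among the last 100 region numbers, while 0.00809% of all tested regions were called. Members there had a median SD within a genotype of 0.971 log2, and limma draws such a spread towards that of regions of similar level. Nothing is read from these 9 calls.

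Members were found all along the numbering. Over 10 equal stretches of it, they made up 0.627% to 1.07% of regions of these levels. A member had another member at the next or previous number in 23 cases, 11 of them among the last 100 numbers. How many such cases the density of members alone would give was not computed. Of the 942 regions of these levels that stood next to a member without being one, 545 (57.9%) were above 0 in Het minus WT, against 48.8% of all regions of these levels. Their median difference was 0.02 log2. Next to mirrored regions 42.6% were above 0, with a median of -0.0251 log2. The sources used here do not say whether the numbering follows the genome.

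The count of members was set against the same count with genotype labels reassigned to libraries within each sex. The labels as given took 979 regions, the most of all 400 assignments, and the labels swapped took 936. The other 398 assignments took 0 to 749 regions, with a median of 192.5. These counts are a description without a p-value, since the table is not neutral between assignments. The 3 directions without variation held 0.0658% of the contrast as given, but 1.09% to 83.3% of the other contrasts, with a median of 26.4%, and the counts fell as that share rose. Among the 38 other assignments with under 10% of their contrast in these directions, counts ran from 321 to 749 with a median of 519.5. Without the last 100 region numbers the labels as given took 962 regions and the highest other assignment 737.

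**Figure D5:**
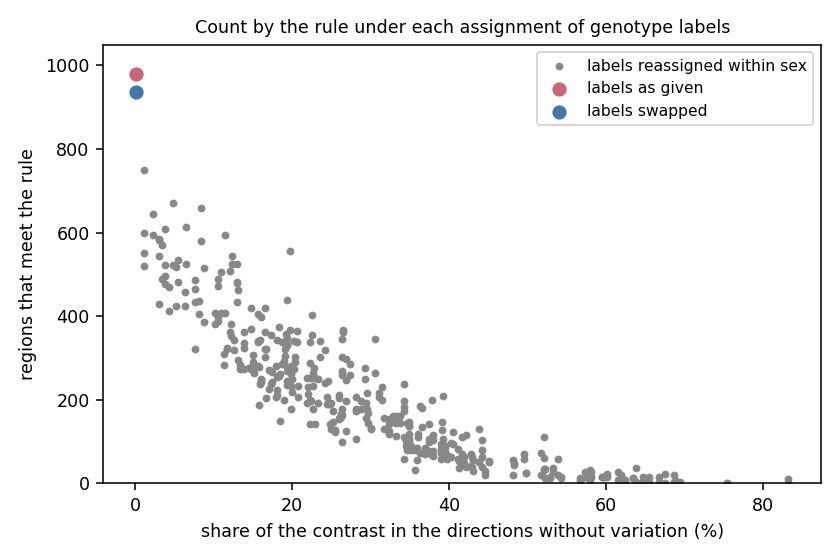
Number of regions that meet the rule (vertical) under each of 400 assignments of genotype labels within sex, against the share of that contrast lying in the 3 directions without variation (horizontal, %). The labels as given (red, 979) and swapped (blue, 936) lie at a share of 0.0658%, and the other counts fall from 749 towards 0 as the share rises.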

How the data were processed

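The authors deposited log2 CPM per numbered region after an adjustment for unwanted variation (RUVr), as the table's title says. The submitters' processing notes name the build mm10 and the tools HTSeq, STAR, Bowtie2 and Trimmomatic, without saying which was used on these libraries. How peaks were called, how many factors were removed and whether reads were shifted for the transposase was not given in the sources used here. Counting intervals need the original depth, which is unknown.

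Columns were matched to libraries by the labels. Correlations between libraries of a genotype were 0.954 to 0.991, and 0 pairs were identical. Regions of at least 1 CPM were tested with limma 3.58.1 in R 4.3.3 (genotype and sex, empirical Bayes trend, Benjamini-Hochberg over all regions), after the code was tested on simulated data. Alternatives covered pseudocounts, filters, scaling, covariates and each library left out. The 3 directions of variation with a root mean square under 0.05 log2 served as covariates in one.

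Members, comparisons and alternatives were chosen with earlier results of these data known. The naming rule allowed 2 identifiers: the member of largest difference, and that of largest difference without overlap.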

Additional observations from a re-analysis of the deposited data

How the results depend on the processing

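The number of regions that met the rule was 2002 at a threshold of 0.30 and 483 at 0.40. With 0.5 added to CPM before the log it was 392, with 2 added 24, and in males alone 1757. The number stayed within 1.5 times of 979 with group medians, quantile normalization, females alone and without the last 100 region numbers. Over the omissions of single libraries it ran from 980 to 1282. The regions taken changed more than their number. Members made up 716 of the 1355 with group medians, 653 of the 1438 in females alone and 971 of the 1004 with quantile normalization. Members called for Het numbered 98 without a filter on level, 2 without a sex term and 14 with the 3 directions as covariates. Over all tested regions 191, 2 and 17 were called higher in Het there, against 371 in the main fit. Over the omissions 1 to 182 members and 1 to 409 of all tested regions were called higher. Members called for sex numbered 52 without a genotype term, 47 with the 3 directions, and 62 to 118 over the omissions. Over all tested regions these counts were 9198, 3135, and 5223 to 14684, against 12543 in the main fit. The 3 directions moved the members called for the Het effect in males minus females from 0 to 9. All tested regions called so moved from 0 to 14. The share of members higher in males ran from 57.5% to 60.9% over the omissions, with the members kept as chosen. A changed threshold or an added constant alters what the rule takes. The cause of the other moves was not tested. Settings chosen after seeing the data were the omission of the last 100 region numbers, the omissions for that share and the 3 directions in the sex difference of the Het effect. No paired analysis was possible because the groups share no label numbers. Unknown depth limits what small differences near 2 CPM can show.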

Other observations

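The same difference of at least 0.35 log2 was more common below the members' range of levels. From 1 to 2 CPM 2487 of 52843 regions (4.71%) reached it and 2827 (5.35%) reached -0.35 log2. From 0.5 to 1 CPM 5421 of 50140 (10.8%) and 5332 (10.6%) did. Above the range, from 20 CPM, 3 of 7412 regions reached 0.35 log2 and 0 reached -0.35 log2, and all 3 were among the last 100 region numbers.

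After the means of genotype and sex were taken off, the first direction held 31.7% of the members' variation, against 20.9% over all regions of these levels. Without the 17 members among the last 100 region numbers it held 24.4%, against 26.8% in the mirrored regions.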
